A study of Bos taurus with 9 samples.

Results

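Galectins are proteins that bind beta-galactoside sugars on glycoproteins and glycolipids. The genes described here are LGALS9, LGALS3 and LGALS1, chosen as every probe set whose array annotation gave one of these symbols alone. Each gene had 1 such probe set (Entrez gene 510813 for LGALS9, 786492 for LGALS3 and 326598 for LGALS1), so 3 of 9155 named genes and 3 of 24016 probe sets were members.

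They were measured in co-cultured stromal and epithelial cells of the bovine endometrium, the lining of the uterus, from Holstein/Polish Black and White cows. Cells were seeded at 3 stromal to 1 epithelial. The 9 donor cows were slaughtered between days 2 and 5 of their cycle, and each of the 9 samples was a pool (n = 3 in the design text) run on 1 Affymetrix bovine array. There were 3 arrays for each group: LPA+IFNt cells given lysophosphatidic acid (LPA, 1e-06 M) together with interferon tau (IFNt) at 1000 antiviral units, the labels giving no volume, LPA cells given LPA at the same dose, and control cells given phosphate-buffered saline. Exposure lasted 6 h in each treated group, in medium with bovine serum albumin in place of serum. No group given interferon tau alone was analysed here, so every effect of interferon tau below was measured in the presence of LPA. With 9 cows for 9 pools, the pools may share cows, so p-values measure only the spread between these pools.

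Galectins have no classical secretion signal, and act both inside cells and, once released, on the sugars of the cell surface and matrix. LGALS1 encodes the prototype galectin-1, which forms dimers and is known for promoting immune tolerance. LGALS3 encodes the chimeric galectin-3, whose single sugar-binding domain carries a long tail through which the protein assembles into larger complexes. LGALS9 encodes the tandem-repeat galectin-9, with a pair of sugar-binding domains on one chain, and one of its receptors is the T-cell protein TIM-3. In ruminants, interferon tau from the embryo is the signal by which the uterus recognises pregnancy, and galectins are among the proteins that the endometrium makes around that time.

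Values are log2 expression values from RMA, so a difference of 1 is a 2-fold difference. As a guide to background, the 3 bacterial trp probe sets, which match no bovine gene, reached at most 2.80 on any array. LGALS9 was above this value on all 9 arrays, but by as little as 0.17 on the lowest of them, control replicate 2. LGALS3 and LGALS1 lay far above it everywhere, with lowest values 11.4 and 10.8 above. The highest value of any probe set was 15.58 to 15.66 across the arrays.

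The labelled cell types were checked with marker genes. All 13 measured epithelial markers and all 13 measured stromal markers had group means above the highest trp value in each group. Of 16 leukocyte markers, 8 never exceeded it, among them the macrophage receptor gene CSF1R and the myeloid adaptor genes TYROBP and FCER1G. The other 8 exceeded it on at least 1 array. Among these was PTPRC, with means of 3.72 in LPA+IFNt, 4.44 in LPA and 3.69 in control. Group means above it numbered 8 in LPA+IFNt, 7 in LPA and 6 in control, so leukocytes cannot be called absent. Of 10 endothelial markers, 8 never exceeded it.

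LGALS9 was the galectin that responded most to the combination of LPA and interferon tau. Its values were 6.87, 6.78 and 6.92 in LPA+IFNt, 3.89, 3.94 and 3.91 in LPA, and 3.56, 2.96 and 3.59 in control. The LPA+IFNt arrays formed a group far above the other 6, and the LPA arrays lay just above the control arrays without overlap. The mean was 6.85 ± 0.07 in LPA+IFNt, against 3.37 ± 0.35 in control (SD, n = 3 each). Most of the control spread came from replicate 2, which was the lowest value of the 9.

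In LPA+IFNt against control LGALS9 rose by 3.48 on the log2 scale (SE 0.15, limma adjusted p = 9.07e-06). This is an 11.2-fold difference, with a 95% interval of 8.72 to 14.3. Matched by replicate number, the 3 differences were 3.31, 3.81 and 3.32. The rise was the 59th highest of the 24016 probe sets and the 29th highest among the 9155 named genes, each gene represented by its brightest probe set. It was the only call among the 3 members in that comparison, where 5.34% of all probe sets were called, 2.48% higher and 2.86% lower. Its groups did not overlap, which was the case for 10.2% of probe sets in the higher direction.

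Set against LPA alone, the addition of interferon tau gave almost the same picture. The LPA mean was 3.91 ± 0.02, and LGALS9 was higher in LPA+IFNt by 2.94 (SE 0.15, adjusted p = 2.59e-05), or 7.68-fold with a 95% interval of 5.99 to 9.84. The replicate-matched differences were 2.98, 2.84 and 3.00, a narrower range than against control. This was the 37th highest change among the named genes. In this comparison 2 of the 3 members were called, LGALS9 higher and LGALS3 lower, where 6.54% of probe sets were called, 2.56% higher and 3.98% lower. The LPA+IFNt arrays lay above all LPA arrays for 7.35% of probe sets and below them for 11.3%.

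LPA alone gave a smaller difference in LGALS9, which was not called. The difference between LPA and control was 0.54 (SE 0.15), a 1.45-fold difference with a 95% interval of 1.13 to 1.86, and it did not pass the threshold (unadjusted p = 0.00861, adjusted p = 0.356). It was the 237th highest difference of the 24016 probe sets and the 90th highest among the named genes. The replicate-matched differences were 0.33, 0.97 and 0.32, and without control replicate 2 the difference was 0.34. The 3 LPA arrays all lay above the 3 control arrays, which was the case for 5.13% of probe sets, while 4.91% lay wholly below and 10.0% did either. Of the 3 members, 0 were called, where 17 probe sets, or 0.0708% (0.0500% higher and 0.0208% lower), were called by limma and 1993 had an unadjusted p under 0.05. With the replicate number as a block the share called was 0.0458%, again with 0 members. Both LPA comparisons with control share the same control arrays.

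**Figure D1:**
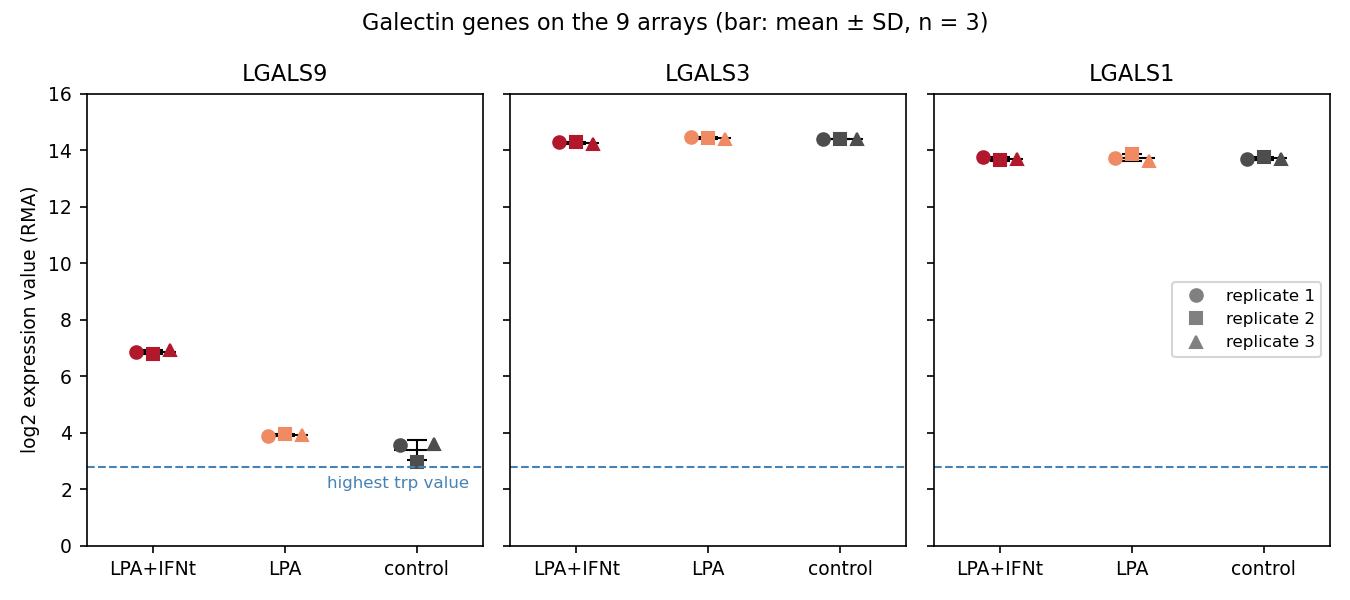
Log2 expression value of LGALS9, LGALS3 and LGALS1 on each of the 9 arrays, with group mean ± SD (n = 3) and the highest value of the bacterial trp probe sets (2.80) as a dashed line. LGALS9 sits between 6.78 and 6.92 in LPA+IFNt, against 2.96 to 3.59 in control, while the other genes stay within a narrow band near the top of the axis.

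LGALS3 changed by a small amount in the opposite direction. Its values were 14.28, 14.28 and 14.21 in LPA+IFNt, 14.46, 14.43 and 14.39 in LPA, and 14.38 on all 3 control arrays. The LPA+IFNt arrays were the lowest 3 of the 9, and the LPA arrays the highest 3. Of all probe sets, 5.13% had the LPA arrays wholly above control, and 10.0% had them wholly above or below. The LPA+IFNt arrays lay wholly below LPA for 11.3% and wholly below control for 12.8%. The control arrays differed from each other by less than the rounding of these values, with an SD of 0.003.

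Against LPA, LGALS3 fell by 0.17 in LPA+IFNt (SE 0.03, adjusted p = 0.0174), a ratio of 0.890 on the linear scale with a 95% interval of 0.847 to 0.935. The replicate-matched differences were -0.18, -0.15 and -0.18. Single arrays carried weight in this call, since the adjusted p was 0.0597 without LPA replicate 1 and 0.0594 without LPA+IFNt replicate 3. It was 0.079 when dim probe sets were left out, 0.0756 when the control arrays were not used for the spread, and 0.888 with spike-in centring, which gave -0.05. The spike-in fit gave every gene recomputed the same SE of 0.20, so it could not have called a fall of 0.17.

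Against control the LGALS3 difference was -0.12 (SE 0.03) and missed the threshold (adjusted p = 0.0767). With the replicate number as a block it passed (adjusted p = 0.0494), in a fit that called 8.68% of probe sets. The arrays did not overlap, as for 12.8% of probe sets in that direction and 23.1% in either. All 3 replicate-matched differences were negative, at -0.10, -0.09 and -0.16. The ratio of LPA+IFNt to control was 0.921 with a 95% interval of 0.877 to 0.967. LPA alone gave a difference of 0.05 (SE 0.03, adjusted p = 0.793), with a 95% interval of -0.02 to 0.12. Over the 3 groups at once, limma's moderated F test gave an adjusted p of 0.0358 for LGALS3, where 5.99% of probe sets passed, and 1.64e-05 for LGALS9.

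LGALS1 showed no detectable response. Its values were 13.75, 13.64 and 13.67 in LPA+IFNt, 13.71, 13.86 and 13.62 in LPA, and 13.67, 13.75 and 13.70 in control. The 3 groups overlapped, and both the highest and the lowest value of the 9 were LPA arrays. The difference was -0.02 for LPA+IFNt against control (SE 0.06, adjusted p = 0.882), -0.04 against LPA (adjusted p = 0.728) and 0.02 for LPA against control (adjusted p = 1). The 95% interval of the LPA+IFNt against control difference was -0.17 to 0.13, which bounds a change in the RMA values as deposited only. With spike-in centring that difference was 0.10 (SE 0.20, adjusted p = 0.80). The F test had an adjusted p of 0.881.

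**Figure D2:**
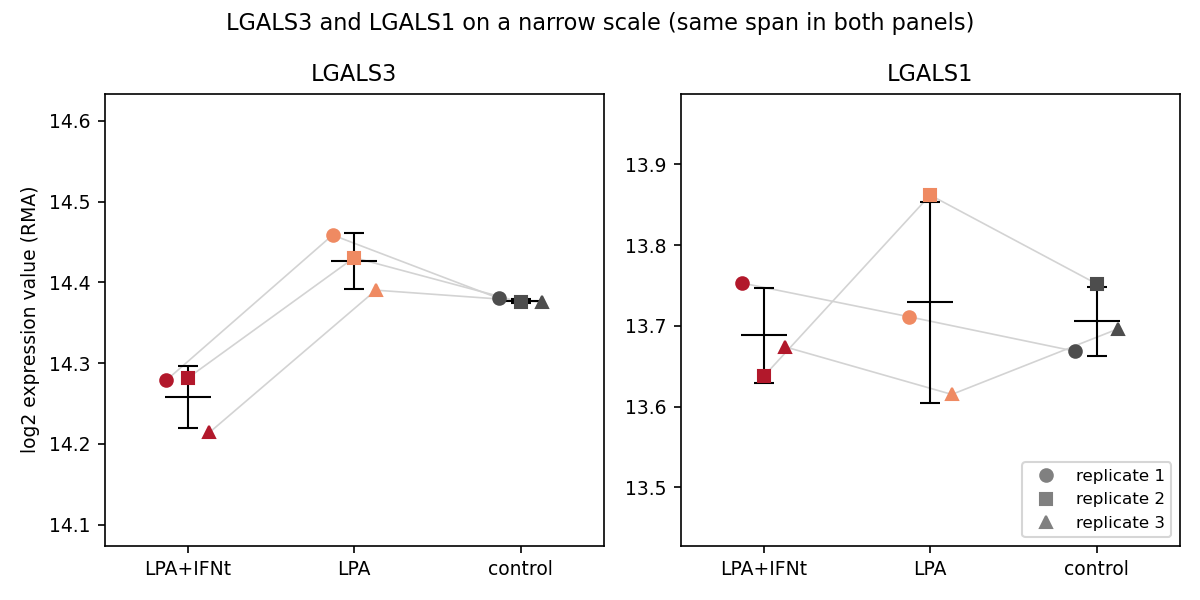
LGALS3 and LGALS1 on a narrow log2 scale of the same span, with grey lines joining arrays that share a replicate number and bars for the mean ± SD (n = 3). For LGALS3 every LPA+IFNt array lies below its LPA and control partners, whereas the LGALS1 groups overlap.

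The members' responses were set against each other within arrays. The LGALS9 change exceeded the LGALS1 change by 3.50 and the LGALS3 change by 3.60 in LPA+IFNt against control. Against LPA the excess was 2.98 over LGALS1 and 3.11 over LGALS3. In each of these 4 tests the groups did not overlap, and the exact permutation test (two-sided) gave p = 0.1, also after adjustment over the 4, which is the smallest p that 3 arrays against 3 allow. The LGALS9 values alone separated these groups by more than the LGALS1 or LGALS3 values varied over all arrays. The 4 tests therefore restate the LGALS9 difference and are no separate support.

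Other genes of the family gave a mixed picture. RefSeq's genes of assembly ARS-UCD2.0 include 11 whose symbol starts with LGALS, of which 7 had a probe set here, and LGALS7, LGALS7B, LGALS12 and LGALSL were not measured. LGALS2 and LGALS1 lie close together in that assembly, with 3 protein-coding genes (GGA1, SH3BP1 and PDXP) between them. Of 16 listed galectins and galectin-related genes other than the members, 4 were measured. Of these 2 rose in LPA+IFNt against control, 1 rose against LPA and 0 were called in LPA against control. The corresponding share of all named genes called higher was 3.43%, 3.75% and 0.0874%, and 0.0328% were called lower in LPA against control. The median change of the 4 genes was 0.16 in LPA+IFNt against control, beside -0.01 for all named genes, and 0.62 against LPA, beside 0.01.

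LGALS3BP, which encodes a secreted glycoprotein that binds galectin-3, rose in both comparisons with interferon tau. Its brighter probe set had 11.27, 11.10 and 10.96 in LPA+IFNt, 9.29, 9.41 and 9.20 in LPA, and 9.57, 9.48 and 9.34 in control. The LPA+IFNt arrays stood clear of the other 6, among which the LPA and control arrays overlapped. Such a separation upwards was seen from control for 10.2% of probe sets and from LPA for 7.35%. The rise was 1.64 against control (SE 0.09, adjusted p = 4.71e-05), a 3.13-fold difference, and 1.81 against LPA (adjusted p = 2.63e-05). The dimmer probe set gave 1.89 and 1.88 for the same comparisons, with adjusted p of 4.71e-05 and 4.89e-05. LPA against control gave -0.16 and 0.01 for the probe sets (adjusted p = 0.763 and 1). So the gene of the binding partner rose in the comparison where LGALS3 itself fell by 0.17.

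LGALS8 encodes another tandem-repeat galectin, which marks damaged vesicles inside cells. It had 7.80, 7.83 and 7.63 in LPA+IFNt, 7.57, 7.44 and 7.50 in LPA, and 7.32, 7.53 and 7.40 in control. The LPA+IFNt arrays were above all others, by a small margin, as they were above control for 10.2% of probe sets and above LPA for 7.35%. The difference from control was 0.33 (SE 0.07, adjusted p = 0.0405), against 0.0529 in the blocked fit, and the call was lost under 13 of 17 alternatives, where adjusted p ranged from 0.029 to 0.36. Against LPA the difference was 0.25 (adjusted p = 0.105).

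LGALS4, a tandem-repeat galectin known from gut epithelium, had 6.74, 6.61 and 6.48 in LPA+IFNt, 5.92, 6.38 and 4.56 in LPA, and 6.66, 6.80 and 6.58 in control. LPA replicate 3 stood apart from all other arrays, and the LPA group was lower than the rest. Of all probe sets, 4.91% had the LPA arrays wholly below control and 7.35% had them wholly below LPA+IFNt. LPA against control gave -1.06 (SE 0.41, adjusted p = 0.539), and without LPA replicate 3 it was -0.53 (SE 0.15) and also uncalled. With spike-in centring it was called (-1.06, adjusted p = 2.71e-05), in a fit that gave every gene recomputed the same SE of 0.20. LGALS2 lay between 1.84 and 1.90, under the highest trp value on all 9 arrays, so its values say nothing about a change.

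**Figure D3:**
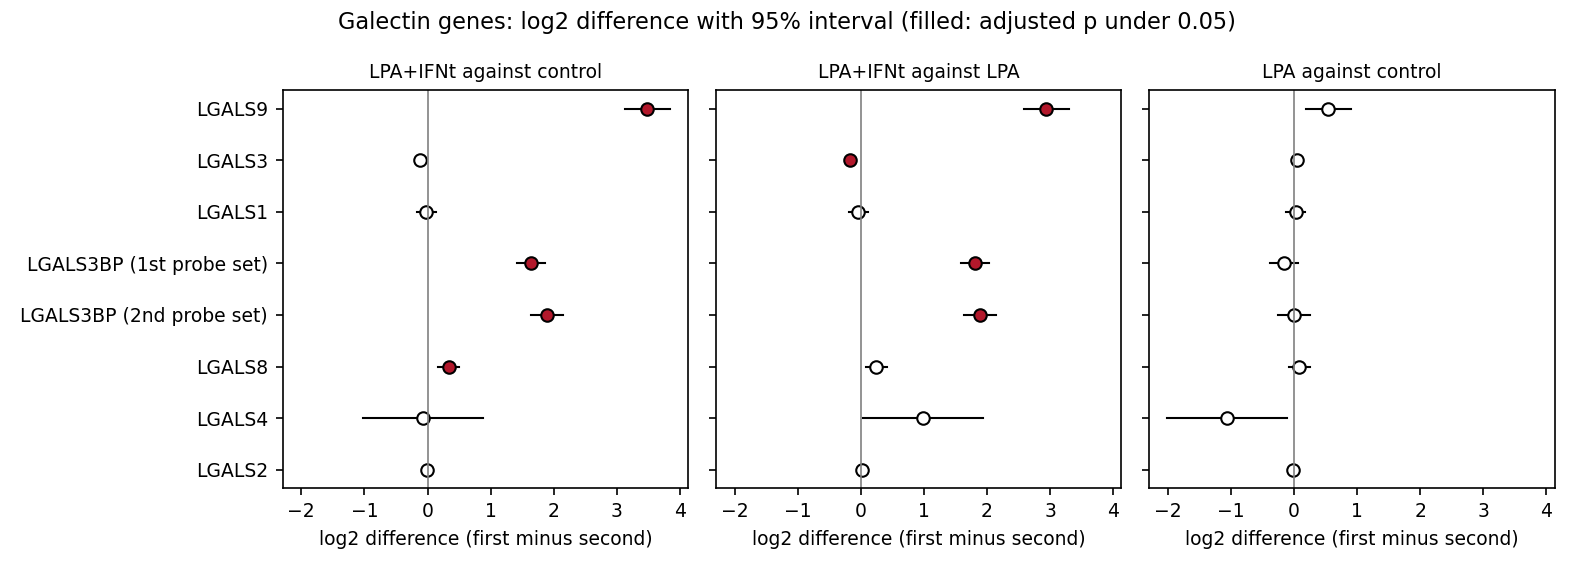
Log2 difference with its 95% interval for 8 probe sets of 7 galectin and galectin-related genes, in LPA+IFNt against control, LPA+IFNt against LPA and LPA against control, filled where the adjusted p is under 0.05. LGALS9 (3.48 and 2.94) and both LGALS3BP probe sets stand far to the right where interferon tau was given, LGALS1 stays near 0, and the panel for LPA alone holds no filled point.

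Galectins act through the glycoproteins they bind. Of 26 listed galectin-binding glycoproteins of the cell surface and matrix, 23 were measured, and the TIM-3 gene HAVCR2 was not among them. In LPA+IFNt against control 1 rose and 1 fell. LAMP2, a heavily glycosylated protein of the lysosome membrane, was at 12.15 in LPA+IFNt and 11.82 in control (difference 0.33, SE 0.04, adjusted p = 0.00444), and 1 of its 2 probe sets was called. LAMC1, a laminin subunit, fell by 0.18 (adjusted p = 0.0352, blocked fit 0.0571), with 1 of its 6 probe sets called, and the call was lost under 13 of 17 alternatives. LAMB1, another laminin subunit, was at -0.49 and was called lower only in the blocked fit (adjusted p = 0.0230, against 0.0563 without the block). The background for named genes was 3.43% higher and 3.13% lower, so these counts were near it, and the list's median was 0.01.

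Against LPA, LAMP2 was again higher (0.20, adjusted p = 0.0339, lost under 14 of 17 alternatives) and 3 of the 23 were lower, where 4.16% of named genes were called lower. They were THY1, a surface glycoprotein of stromal cells (-0.69, adjusted p = 0.00208), LAMB1 (-0.49, adjusted p = 0.0484, lost under 12 of 17 alternatives) and LAMC1 (-0.17, adjusted p = 0.0453, blocked fit 0.0709, lost under 16). THY1 and LAMB1 were named after their values were seen. Against control THY1 was at 0.55 in LPA (adjusted p = 0.0713) and at -0.14 in LPA+IFNt (adjusted p = 0.439), neither called. Its fall was thus from an LPA mean above that of control, by a difference that was not called. In the blocked fit, which called 9.66% of probe sets against LPA, MUC1, which encodes an epithelial surface mucin, joined the higher genes (0.40 against control, adjusted p = 0.0288, and 0.48 against LPA, adjusted p = 0.0157). LPA alone called 0 of the 23.

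Among enzymes that build or cap the sugars read by galectins, 15 of 19 listed were measured, and only MGAT4B, which adds a branch to N-glycans, was called, beside 3.43% of named genes called higher against control and 3.75% against LPA. It was higher in LPA+IFNt by 0.20 against control (SE 0.04, adjusted p = 0.0314, lost under 13 of 17 alternatives) and by 0.24 against LPA (adjusted p = 0.0126). The medians of the list were 0.04 and 0.04, and LPA against control gave 0 calls.

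Galectins also mark damaged lysosomes for removal by autophagy. Of 14 listed genes of that response 11 were measured, and 3 rose in LPA+IFNt against control, beside 3.43% of named genes. CALCOCO2, the autophagy receptor that binds galectin-8, was at 11.27 ± 0.11 in LPA+IFNt and 10.10 ± 0.03 in control (SD, n = 3 each), a difference of 1.17 (adjusted p = 0.000142). The autophagy receptor genes OPTN (0.30, adjusted p = 0.0349) and TAX1BP1 (0.18, adjusted p = 0.0345) moved far less and lost their calls under 8 and 15 of 17 alternatives. Against LPA only CALCOCO2 was called (1.19, adjusted p = 0.000127), or also OPTN with the replicate block (0.23, adjusted p = 0.0216). The median of the list was near 0 (-0.003 against control and -0.07 against LPA). With the block ATG16L1, which takes part in forming autophagosomes, was lower against control (-0.16, adjusted p = 0.0442). LPA alone called 0 of the 11. There TAX1BP1 was at 0.20 against control (adjusted p = 0.134) and ATG16L1 at -0.18 (adjusted p = 0.25). Both were at least as large as the differences of LPA+IFNt from control.

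LGALS9 rose alongside genes of interferon signalling. Of 11 listed genes 7 were measured, and 4 rose in LPA+IFNt against control, beside 3.43% of named genes called higher. IRF9 (2.61, SE 0.19) and STAT2 (2.45, SE 0.11), whose proteins join in the complex that carries the type I interferon signal to DNA, rose less than LGALS9 on the log2 scale, as did IRF7 (1.96) and IRF3 (0.87), which was named after its values were seen. IRF7 had 2 of its 3 probe sets called. The same 4 genes rose against LPA, by 2.46, 2.47, 2.07 and 0.71 in that order, beside 3.75% of named genes called higher. In LPA against control 0 of the 7 were called. With the replicate block the kinase gene JAK1 was lower against LPA (-0.33, adjusted p = 0.0455).

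**Figure D4:**
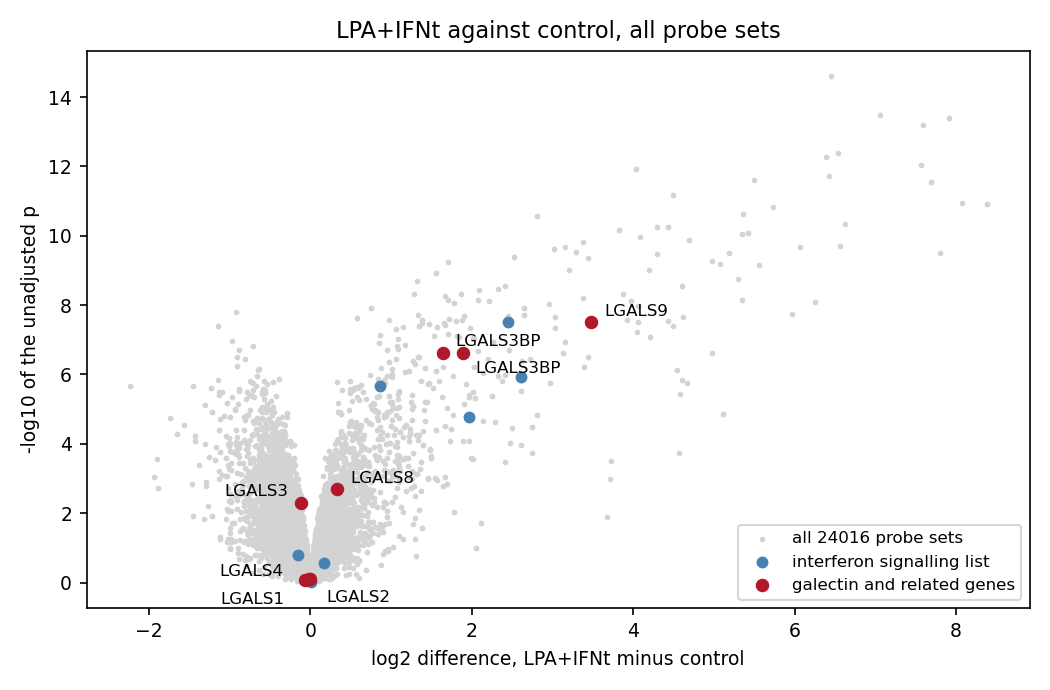
Each point is a probe set in LPA+IFNt against control, with the log2 difference across and the -log10 of the unadjusted p upwards; galectin and related genes are red and the interferon signalling list blue. LGALS9 lies to the right of the interferon signalling genes at 3.48, LGALS3BP among them, and LGALS3, LGALS1, LGALS2 and LGALS4 near the axis of no change.

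The named genes whose values most resembled each member over the 9 arrays were listed by Pearson r, among 7029 genes with a mean above the highest trp value. These arrays share groups and normalization, so r describes the pattern and is given without a p. Nearest to LGALS9 were RSAD2 (r = 0.994), which encodes the antiviral enzyme viperin, NUPR1 (0.993), a stress-induced nuclear protein gene, the ubiquitin-like modifier gene ISG15 (0.992), the antiviral gene SAMD9 (0.992) and BCL2L15 (0.991) of the BCL2 family. All 5 rose in LPA+IFNt against control, by 6.56 for RSAD2, 1.86 for NUPR1, 6.63 for ISG15, 4.30 for SAMD9 and 3.44 for BCL2L15. Their shared direction follows from the choice by r over the same arrays. In all, 226 genes had r over 0.9 with LGALS9. Over the 6 LPA and control arrays alone, also among those that chose them, r with these 5 genes was 0.69 to 0.80.

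Nearest to LGALS3 were ASNSD1 (r = 0.977), DERL2 (0.976), which takes part in the disposal of misfolded proteins from the endoplasmic reticulum, the small GTPase gene ARL3 (0.969), APOLD1 (0.968) and the leucyl-tRNA synthetase gene LARS1 (0.965). All 5 were lower in LPA+IFNt than in LPA, by log2 differences of -0.36, -0.24, -0.29, -1.05 and -0.23 in that order, with adjusted p of 0.00456 to 0.0453, and APOLD1 alone kept its call under all 17 alternatives. Since r over the same arrays chose these genes, their shared direction follows from the choice and is no separate support. Against control only APOLD1 was called (-0.81, adjusted p = 0.0154), and the others had adjusted p of 0.0722 to 0.145. Over the 6 LPA and control arrays, which are among the 9 that chose these genes, r was 0.78 to 0.91. Nearest to LGALS1 were PIGF (0.923), POLR2D (0.902), TIMM13 (0.90), PDE8A (0.895) and IPO4 (0.892), and 3 genes had r over 0.9. None of these 5 was called in LPA+IFNt against control or against LPA.

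**Figure D5:**
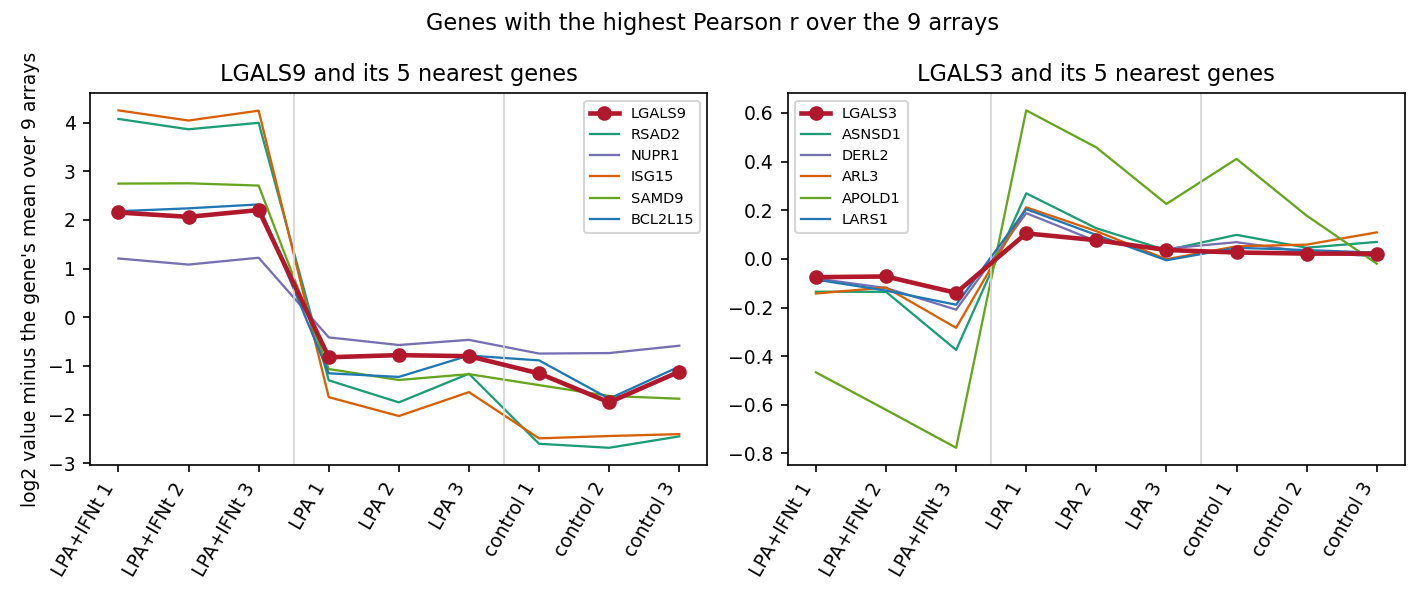
Log2 value minus the gene's mean over the 9 arrays, for LGALS9 and LGALS3 (thick red lines with points) and the 5 genes nearest to each by Pearson r. In the left panel all lines step up in the 3 LPA+IFNt arrays, and in the right panel they are lowest there and highest in LPA replicate 1.

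Markers of the cell types present moved with some of these differences. Of 13 stromal markers, 3 fell in LPA+IFNt against control (COL3A1 by 0.51, COL1A1 by 0.39 and FBN1 by 0.39, which encode matrix proteins) and 5 against LPA (COL3A1 by 0.54, COL1A1 by 0.55, COL1A2 by 0.25, THY1 by 0.69 and FBN1 by 0.40), beside 3.13% and 4.16% of named genes called lower. COL1A1 lost its call against control under 9 of 17 alternatives, and COL1A2, named after its values were seen, lost its call against LPA under 10, the replicate block among them (adjusted p = 0.0609), which left 4 calls. The mean log2 level of the stromal list was 11.36 to 11.39 in LPA+IFNt, 11.59 to 11.77 in LPA and 11.48 to 11.59 in control, which is the same order of groups as for LGALS3. The epithelial list lay at 10.53 to 10.66, 10.48 to 10.56 and 10.45 to 10.59 in the same groups, with CDH1, a cell adhesion gene, higher against control (0.21, adjusted p = 0.0112) and SPINT2, a protease inhibitor gene named after its values were seen, lower against LPA (-0.45). Of all named genes, 3.43% were called higher against control and 4.16% lower against LPA. The blocked fit also called MUC1 higher in both comparisons, as given above, and KRT18, a keratin gene named after its values were seen, higher against LPA (0.20, adjusted p = 0.0378). In a mixed culture, fewer cells of a type and less RNA per cell cannot be told apart, and the part of these shifts in the LGALS3 difference was not tested.

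Leukocytes make galectin-9, so their markers are given beside LGALS9. Of 16 measured, only CD53 was called without the replicate block, at 4.01 in LPA+IFNt, 2.86 in LPA and 2.75 in control, where it was under the highest trp value (difference from control 1.26, adjusted p = 0.0252, lost under 7 of 17 alternatives). Against LPA the CD53 difference was 1.15 (adjusted p = 0.0336), a call lost under 9 of 17 alternatives. Of all named genes, 3.43% were called higher against control and 3.75% against LPA. The blocked fit also called the monocyte gene CD14, named after its values were seen, lower against control (-0.74, adjusted p = 0.0364) and against LPA (-0.80, adjusted p = 0.0271). That fit called 8.68% of probe sets against control and 9.66% against LPA. The mean log2 level of the list was 3.30 to 3.41 in LPA+IFNt, 3.28 to 3.45 in LPA and 3.21 to 3.32 in control. The part of CD53-expressing cells in the LGALS9 rise was not tested. The endothelial list held 0 calls in the 3 comparisons. Of all probe sets, 5.34% were called in LPA+IFNt against control, 6.54% against LPA and 0.0708% in LPA against control. In LPA+IFNt PECAM1 was at -0.06 against control (adjusted p = 0.369), and no array took it above trp.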

How the data were processed

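The deposited values are log2 expression values per probe set, made by the authors, who used RMA and Partek per the submitters' processing notes (no version is stated there). The base of 2 rests on what RMA normally writes and on the range of the values. RMA equalises the arrays' distributions (medians 4.29 to 4.37), so a change of most transcripts in one direction would not show. Precision is limited by the number of arrays.

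Of 24128 probe sets, 112 control probe sets were left out. Names came from the array annotation, checked through gene identifiers against RefSeq (ARS-UCD2.0, 13263 of 13292 found, 0 symbols changed). Groups were compared in R 4.3.3 by limma 3.58.1 (two-sided, functions lmFit and eBayes, all 9 arrays, no covariate), with Benjamini-Hochberg adjustment over 24016 probe sets and a threshold of 0.05. The fit was tested on simulated data. RefSeq served only for names and gene order. No coordinates are printed, since the expression files name no genome build, and sequences were not used here.

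The members and lists were chosen with earlier results of these data known. All probe sets of the members are described. For a list, the brightest probe set stood for a gene, and its 3 largest called changes at most in LPA+IFNt against control are named, or the 1 with the smallest p. The 5 genes with the highest Pearson r to each member are also named. The labels number the arrays 1 to 3 in each group. All 9 pairs of same-numbered arrays of different groups had deviations from the group means that correlated, with r of 0.19 to 0.49 (over 0.1 in each), against -0.47 to 0.14 for 18 pairs with different numbers, so the numbers were taken to pair the arrays and a fit with the number as a block was run beside the main one. Other alternatives were a filter on dim probe sets, spike-in centring, no or trended variance moderation, the 2 groups compared alone, averaged probe sets and leaving out each array.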

Additional observations from a re-analysis of the deposited data

How the results depend on the processing

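LGALS9 kept its call in LPA+IFNt against control (log2 difference 3.28 to 3.60) and against LPA (2.87 to 3.06) under each of 17 alternatives, and stayed uncalled in LPA against control (0.34 to 0.65). LGALS3 against LPA lost its call without dim probe sets (-0.17, adjusted p = 0.079), with spike-in centring (-0.051, adjusted p = 0.888), with the 2 groups alone (-0.17, adjusted p = 0.0756) and with LPA replicate 3 left out under the replicate block (-0.18, adjusted p = 0.0716, chosen after seeing the data). The LGALS3 difference from LPA ranged over -0.19 to -0.15 with each array left out. Against control LGALS3 was called only with the replicate block (-0.12). Spike-in centring gave every gene recomputed an SE of 0.20, so changes near or below that size could not be called there. That setting is counted in each tally of 17 alternatives. Replicate pairing by that block changed no other call of the members, and moved those of LGALS8 and of list genes, each given above with its blocked value.

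Under spike-in centring the median over all probe sets was 0.14 in LPA+IFNt against control and against LPA, beside 0.02 as reported. LGALS3 was at -0.0013 and -0.051 in these comparisons. The centring shifts all probe sets of an array by the same amount, so a gene's distance from the median could not change. Spike-in centring moved the share of calls that were higher to 74.6% against control, beside 46.4%, and to 67.7% against LPA, beside 39.1%. Under it LGALS1 was 0.10 against control and 0.076 against LPA, LGALS2 0.11 and LGALS4 0.045 against control, and PECAM1 0.053 against control, each a change of sign with no call. With each array left out, differences ranged over -0.042 to 0.081 (LPA against control), -0.050 to 0.0078 (LPA+IFNt against control) and -0.099 to 0.025 (LPA+IFNt against LPA) for LGALS1, over -0.022 to 0.0068 against control and -0.00034 to 0.029 against LPA for LGALS2, and over -0.055 to 0.099 for the dimmer LGALS3BP probe set in LPA against control. That probe set was at -0.080 with averaged probe sets, and at -0.075 without LPA replicate 3 under the replicate block.

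The probe sets called in LPA against control numbered 17, or 11 with the replicate block, 37 without dim probe sets, 203 with spike-in centring, 0 without moderation (1476 at an unadjusted p under 0.05), 36 with a trend, 1 with the 2 groups alone, 28 with averaged probe sets, 0 without LPA replicate 3 under the block (2330 at an unadjusted p under 0.05), and 0 to 169 with an array left out. In LPA+IFNt against control they numbered 1282, or 2085 with the replicate block, 803 with spike-in centring, 788 without moderation and 791 to 1352 with an array left out. Against LPA they numbered 1571, or 934 with spike-in centring, 901 without moderation, 1004 with the 2 groups alone and 954 to 2204 with an array left out. The difference of changes between galectins ranged over 2.93 to 3.71 with an array left out. Of 41 called results of other genes, 25 lost the call under at least 1 alternative and 0 changed sign.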
